A study of Mus musculus with 18 samples.

Results

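The comparison described here sets spleens of tumour-bearing mice under the code GC (T_GC) against spleens of tumour-bearing mice under the code P (T_P). Its members are the 3 T_GC and the 3 T_P libraries, 6 of the 18 libraries of the study, and it was made over every gene with at least 1 TPM (transcript abundance scaled to a fixed library total) in at least 3 of the 18 libraries, which were 16635 of 56876 genes. The study injected 4T1 cells, a mammary carcinoma line derived from a Balb/c mouse, into the mammary pads of female Balb/c mice, and RNA was sequenced from spleen cells. Antibody to G-CSF, antibody to PD-1 or a control IgG was given into the peritoneum at 10 mg/kg on days 18, 21 and 24, and spleens were taken on day 29. The letter T in a title stands for tumour-bearing and N for the WT label. No label spells out what P or GC stands for. The treatment tag gives anti-PD-1 to T_GC and T_P alike, and the cell-type tag calls N libraries tumour-bearing too. Groups therefore follow the titles and are called by their codes. The N_GC and N_P groups, 3 libraries each, carry the same codes, are called spleens without a tumour after their WT label, and share no library with T_GC or T_P.

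G-CSF, the product of Csf3, acts through the receptor encoded by Csf3r on granulocyte precursors and neutrophils and drives their production, survival and release. PD-1, the product of Pdcd1, is an inhibitory receptor of activated lymphocytes. Its ligands PD-L1 and PD-L2 are encoded by Cd274 and Pdcd1lg2. The mouse spleen holds white pulp of B and T cells, a marginal zone with its own macrophages and B cells, and a red pulp whose macrophages recycle iron from aged red cells, and in tumour-bearing mice it can also become a site of granulocyte production.

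TPM add up to the same total in every library, so a few abundant transcripts that fall make the others rise. Pearson correlations of log2(TPM + 1) over all tested genes, which are not independent replicates, ran from 0.953 to 0.964 among the T_GC libraries and from 0.974 to 0.976 among the T_P libraries. Within T_GC a gene's SD was 0.203 log2 units at the median, against 0.129 in T_P and 0.122 to 0.145 in the other groups, so the T_GC libraries stood further apart from each other than those of any other group. Sequencing depth is unknown, because TPM keep none. The tissue label was checked against defining markers: all 27 B cell, 30 T cell and 15 red pulp macrophage genes listed passed the expression filter, whereas 12 of 13 pancreatic genes and 8 of 12 epithelial genes did not, and the keratin genes Krt14 and Krt19 were listed at 0 in T_GC and T_P.

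Values below are given for T_GC replicates 10, 21 and 37 and T_P replicates 26, 39 and 43, in that order. A difference is T_GC minus T_P in log2(TPM + 1) units, which understates the change of weakly expressed genes, and a gene was called when the adjusted p of limma, by Benjamini-Hochberg over all tested genes, was under 0.05. For every called gene named below the T_GC libraries lay all on 1 side of the T_P libraries, save Cdt1, Mki67, Socs3 and Sox4. Of 16635 genes 10284 were called, 61.8% of those tested. Higher in T_GC were 8173 genes (49.1%) and lower 2111 (12.7%), and these shares are the background against which the counts for gene lists have to be read. The libraries did not overlap for 8370 genes that were higher (50.3%) and 2227 that were lower (13.4%). Called rises of at least 1 log2 unit numbered 2315 (13.9%) and falls of that size 681 (4.09%). The median gene was higher by 0.39. Scaling by median of ratios, which centres the middle of the genes, moved that median by −0.34 and called 4295 genes higher (25.8%) and 4360 lower (26.2%). A change of small size, in either direction, is thus a statement about shares of the total. A flip under that scaling is given with each called gene it touches. In bulk RNA, fewer cells of a type and less RNA per cell cannot be told apart. Nothing in the labels says whether the 3 libraries of a group came from separate animals, so the p-values measure only spread between libraries. For limma that spread was the spread within groups, pooled over all groups of the study, those without a tumour included. The SE and adjusted p of a gene therefore do not rest on the T_GC and T_P libraries alone.

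**Figure D1:**
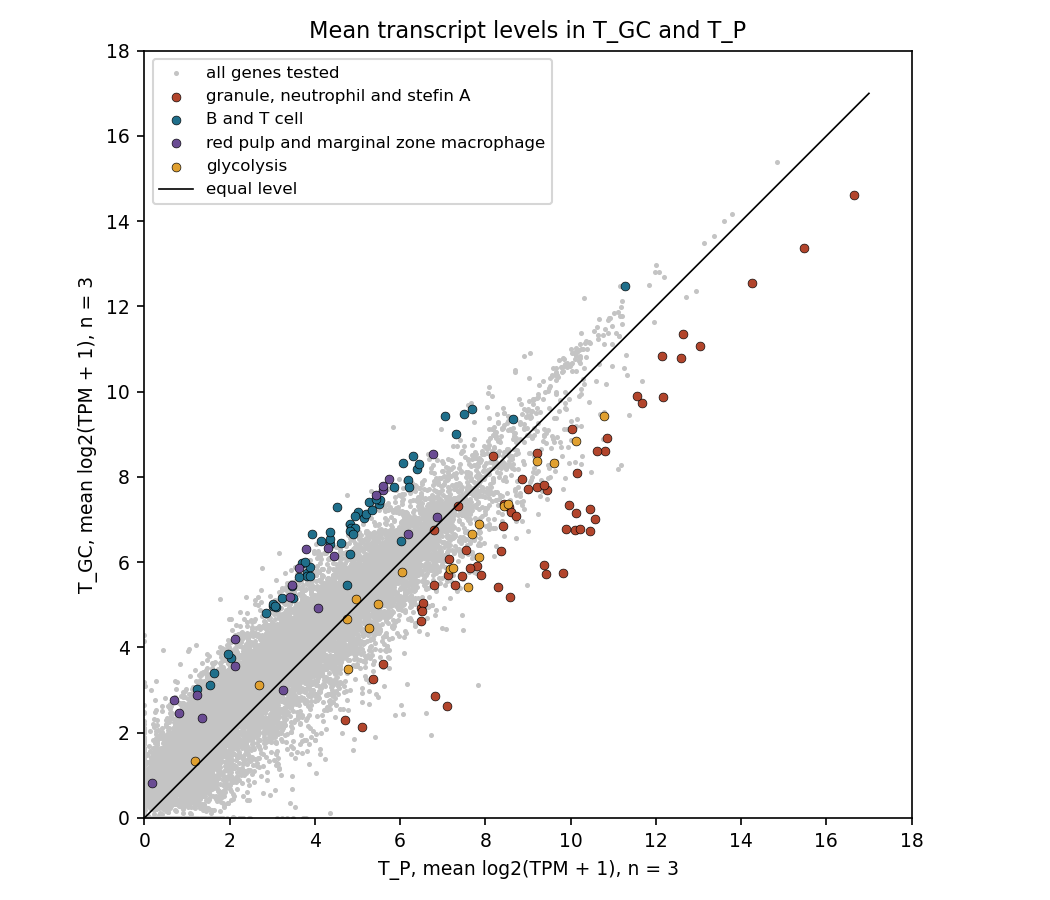
Mean level in T_GC (vertical, log2(TPM + 1), n = 3) against mean level in T_P (horizontal, same unit, n = 3) for the 16635 genes tested, with the genes of 4 classes coloured and the line of equal level drawn. Granule, neutrophil and stefin genes lie mostly below the line at high levels, B cell, T cell and splenic macrophage genes lie mostly above it, and glycolysis genes lie mostly below it.

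Neutrophil transcripts made up a smaller share of the RNA under the code GC. S100a8 and S100a9, which encode the subunits of calprotectin, the most abundant cytosolic protein of neutrophils, together took 2.61%, 4.39% and 3.92% of all TPM in the T_GC libraries and 15.6%, 14.4% and 14.3% in the T_P libraries. The groups did not overlap, at 3.64% ± 0.924 against 14.8% ± 0.729 (mean ± SD, n = 3), and an exact two-sided permutation test over the 6 libraries gave p = 0.1, the smallest value that 3 against 3 libraries allow. Over the 64 listed granule, neutrophil and stefin genes the share was 6.10% ± 1.41 in T_GC and 23.2% ± 0.847 in T_P. By library it was 4.48%, 7.10% and 6.71% in T_GC and 24.2%, 23.0% and 22.5% in T_P, so T_GC replicate 10 held the least. S100a9 alone stood at 18544, 31025 and 26947 TPM in T_GC and 107305, 100616 and 98165 TPM in T_P (log2 difference −2.03, SE 0.37, adjusted p = 0.000247).

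Primary granules are filled at the promyelocyte stage with serine proteases and myeloperoxidase, and their genes were mostly lower in T_GC. Of 12 listed genes 11 were tested and 10 were lower, with a median difference of −2.96 against 0.39 over all genes. Elane, neutrophil elastase, stood at 118, 79.1 and 131 TPM in T_GC and 1092, 1183 and 1009 TPM in T_P (log2 difference −3.34, SE 0.41, adjusted p = 7.22e-06). Prtn3, proteinase 3, stood at 139.8, 89.8 and 168 TPM in T_GC and 1511, 1630.2 and 1449 TPM in T_P (log2 difference −3.56, SE 0.38, adjusted p = 2.01e-06). For Mpo, myeloperoxidase, the values were 189.9, 108 and 164 TPM in T_GC and 1322, 1652 and 1255 TPM in T_P (log2 difference −3.22, SE 0.41, adjusted p = 8.93e-06). In each of these genes the highest T_GC library lay far below the lowest T_P library, and T_GC replicate 21 was the lowest of its group. Ctsg, cathepsin G, differed by −3.45 and Prss57, a further serine protease of the same granules, by −2.96. Cd63, a granule membrane tetraspanin with wider expression, differed by −1.91 and Serpinb1a, an inhibitor of these proteases, by −1.27. Ctsc, the peptidase that activates granule proteases in many cell types, was not called (log2 difference −0.05, SE 0.13, adjusted p = 0.73), and Bpi did not pass the filter.

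Because Elane, Prtn3 and Mpo moved together, their promoters are shown, as 300 bases from 250 before to 50 after the RefSeq start (mouse build GRCm38.p6, matched by symbol, plus strand), at chr10:79886062-79886361, chr10:79879417-79879716 and chr11:87793534-87793833. Elane and Prtn3 are near neighbours on chromosome 10. Capitals mark GAGGAA, the core letters that the myeloid factor PU.1 can bind, searched on both strands.
Elane: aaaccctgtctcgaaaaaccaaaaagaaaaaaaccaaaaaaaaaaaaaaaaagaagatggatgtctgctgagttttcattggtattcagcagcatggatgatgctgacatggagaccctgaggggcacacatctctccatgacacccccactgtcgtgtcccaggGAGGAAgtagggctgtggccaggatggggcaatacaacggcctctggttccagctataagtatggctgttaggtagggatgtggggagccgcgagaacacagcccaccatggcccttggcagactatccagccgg
Prtn3: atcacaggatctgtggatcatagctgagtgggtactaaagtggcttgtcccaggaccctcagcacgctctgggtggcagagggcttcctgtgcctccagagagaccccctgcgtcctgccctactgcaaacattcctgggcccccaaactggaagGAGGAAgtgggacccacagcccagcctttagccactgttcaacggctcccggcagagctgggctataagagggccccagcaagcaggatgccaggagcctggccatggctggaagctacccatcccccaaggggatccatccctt
Mpo: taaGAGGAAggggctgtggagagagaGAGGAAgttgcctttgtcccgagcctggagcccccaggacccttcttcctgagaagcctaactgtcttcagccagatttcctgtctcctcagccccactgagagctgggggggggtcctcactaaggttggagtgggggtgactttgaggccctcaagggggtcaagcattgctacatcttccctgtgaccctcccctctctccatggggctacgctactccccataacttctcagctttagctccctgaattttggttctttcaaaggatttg
The letters occurred at 1 place in the Elane and Prtn3 windows and at 2 in that of Mpo, each time on the strand shown. They were in windows of 8 of the 10 primary granule genes that matched the table, out of 12 listed, and in 28.1% of all 32544 windows of this length. The 8 include Ctsc, which was not called, and Bpi, which was not tested. Srgn and Fcnb, which were lower in T_GC, lacked the letters. Only 1 tested gene of the list was not called, so presence of the letters cannot be compared with the direction of change. Srgn had 2 windows, and the share over all counts windows rather than genes. TTGCNNAA, letters that C/EBP factors can bind, with no overlap between the motifs, was in none of the 3 windows, in those of 2 of the 10 matched genes and in 10.8% of all windows. A match describes the letters of a window and is not a binding site.

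Secondary and tertiary granules, filled later in maturation, hold antimicrobial and matrix-degrading proteins. Of their 20 genes 18 were lower (median difference −1.64) and none was higher. Ngp, neutrophilic granule protein, stood at 5019, 6554 and 6526 TPM in T_GC and 19885, 19804 and 19193 TPM in T_P (log2 difference −1.71, SE 0.54, adjusted p = 0.0133). Lcn2, which binds bacterial iron carriers, and Ltf, which binds iron, differed by −1.96 and −1.79, and Mmp9, a gelatinase of tertiary granules, by −1.75. Ifitm6 and Pglyrp1 had the largest falls of the list, −2.30 and −2.20. Camp, the cathelicidin precursor, was at 1349.9, 2244 and 2029 TPM in T_GC and 5189, 4087 and 4389 TPM in T_P without being called (log2 difference −1.31, SE 0.56, adjusted p = 0.057), and Chil3 was not called either (−0.66, adjusted p = 0.387).

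Most genes of mature neutrophils fell as well. Of 24 genes tested 22 were lower and 1 higher (median −1.80), and with median-of-ratios scaling 22 were lower and none higher. Prok2, a secreted peptide of neutrophils, stood at 5.52, 7.72 and 3.17 TPM in T_GC and 106, 163 and 146 TPM in T_P (log2 difference −4.47, SE 0.27, adjusted p = 1.57e-08), and Lipg, endothelial lipase, at 5.31, 4.48 and 9.81 TPM in T_GC and 95.4, 142 and 102 TPM in T_P (log2 difference −3.96, SE 0.20, adjusted p = 4.22e-09). These were among the 4 largest falls of the genes named by rule. Cxcr2, the receptor that draws neutrophils out of marrow, stood at 99.1, 158 and 154 TPM in T_GC and 400.1, 447 and 425 TPM in T_P (−1.65). Ly6g, the surface antigen by which mouse neutrophils are sorted, was at 168, 288 and 204 TPM in T_GC and 634, 550.0 and 582 TPM in T_P, and Il1b, the interleukin-1 beta gene, at 189.9, 326 and 244 TPM in T_GC and 428, 481 and 472 TPM in T_P. Both were called (−1.45 and −0.89, adjusted p = 0.0129 and 0.0114), and both calls were lost without T_GC replicate 10 (adjusted p = 0.0512 and 0.0595). Ccl6 did not differ beyond its error (−0.05, adjusted p = 0.838).

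Stefin A genes encode small cytosolic inhibitors of cysteine proteases that are abundant in mouse neutrophils. All 7 that were tested were lower, by 2.43 to 4.08 (median −3.44). Stfa2 stood at 21.1, 44.2 and 154 TPM in T_GC and 775, 1066 and 909 TPM in T_P (log2 difference −4.08, SE 0.58, adjusted p = 2.89e-05). T_GC replicate 37 held several times the level of replicates 10 and 21, and still lay below every T_P library. The copies are so alike that reads can be assigned to the wrong member, so single values are uncertain. Among genes outside the lists, Saa3, an acute-phase serum amyloid, had the largest fall by the naming rule, at 4.12, 3.14 and 29.5 TPM in T_GC and 118, 329 and 299.6 TPM in T_P (log2 difference −4.72, SE 0.68, adjusted p = 3.17e-05). Fam20c, a kinase of secreted proteins, stood at 1.94, 3.23 and 3.1 TPM in T_GC and 37.4, 41.7 and 46.8 TPM in T_P (log2 difference −3.53, SE 0.25, adjusted p = 5.12e-08), and Ggt1, gamma-glutamyltransferase, at 2.93, 6.61 and 7.32 TPM in T_GC and 62.1, 68.1 and 61.6 TPM in T_P (log2 difference −3.37, SE 0.22, adjusted p = 3.07e-08).

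**Figure D2:**
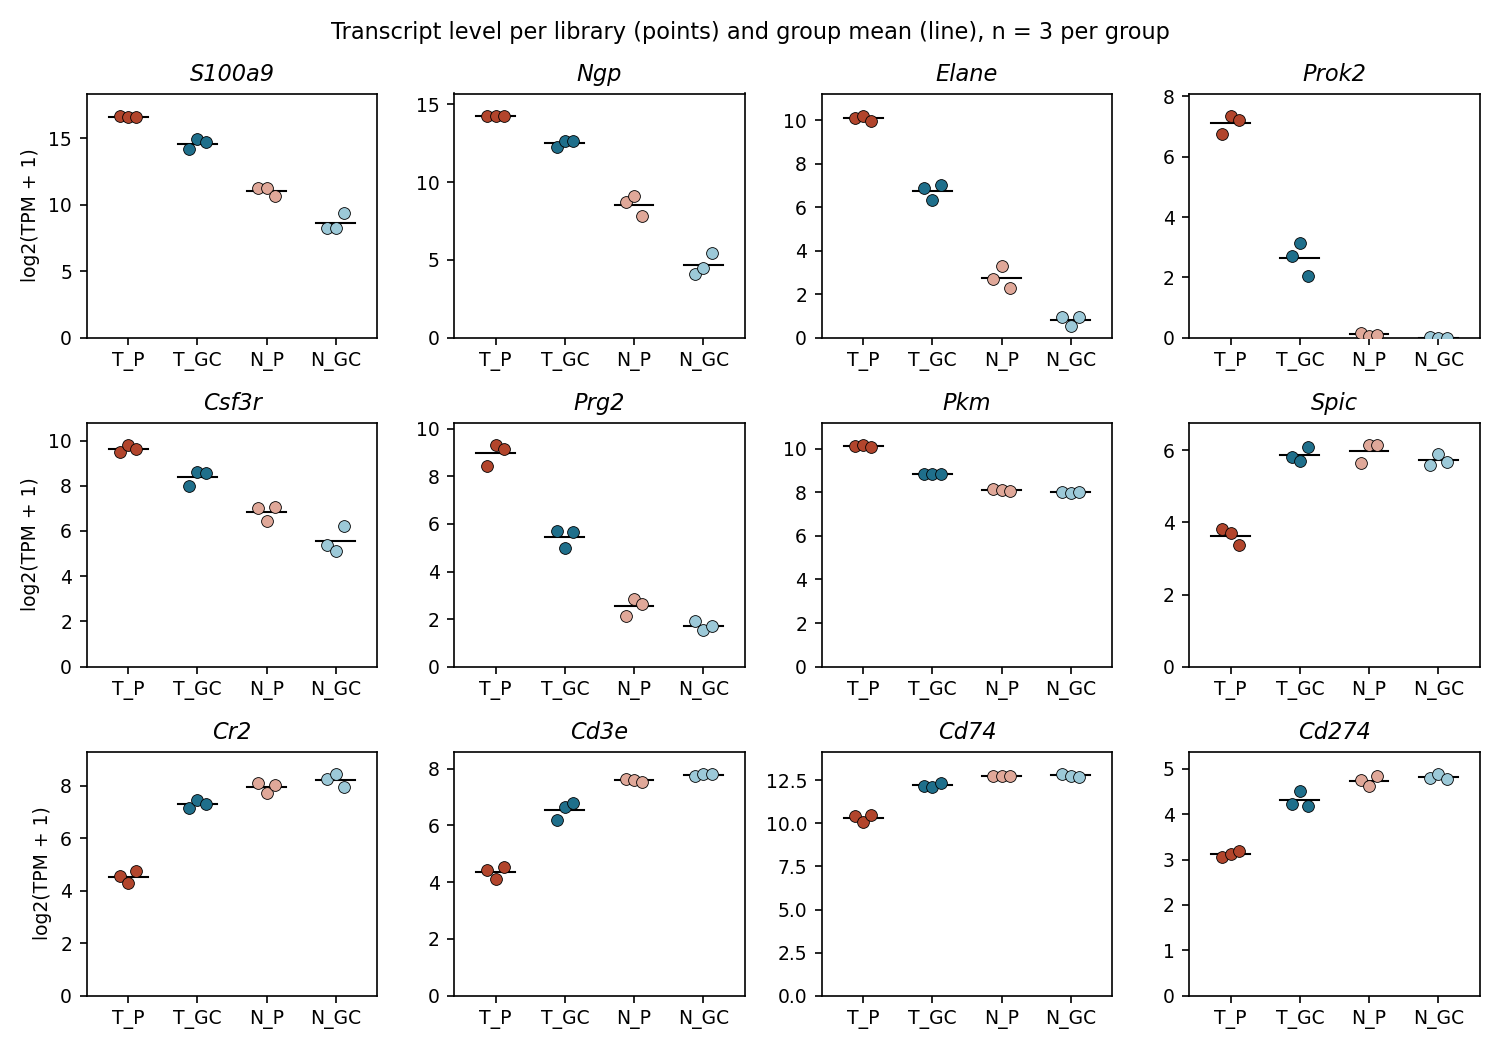
Level of 12 genes in each library as log2(TPM + 1) (vertical), with points for the 3 libraries and a line for the mean in T_P, T_GC, N_P and N_GC (horizontal). S100a9, Ngp, Elane and Csf3r were lower under GC than under P with and without a tumour, whereas Cr2, Cd3e, Cd74, Spic and Cd274 were higher in T_GC than in T_P and were not called between N_GC and N_P.

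The receptor of G-CSF was lower and its ligand was barely detected. Csf3r stood at 254, 384 and 378 TPM in T_GC and 725, 901 and 785 TPM in T_P (log2 difference −1.26, SE 0.27, adjusted p = 0.000828), with no overlap. Csf3 was listed at 0.06 TPM or less in all 6 libraries and did not pass the filter. The receptors of GM-CSF fell alongside, Csf2ra from 549.7 ± 14.5 TPM in T_P to 255 ± 23.9 TPM in T_GC (−1.11) and Csf2rb2 from 50.2 ± 5.67 TPM in T_P to 19.2 ± 0.759 TPM in T_GC (−1.34), and Csf1, a macrophage growth factor, differed by −1.35. Csf1r, the receptor of that factor, went the other way (0.90, adjusted p = 0.0015), a call lost with median-of-ratios scaling (adjusted p = 0.101). Of 27 genes of growth factor receptors and JAK-STAT signalling 13 were higher, a share near that of all genes, and 10 were lower. The lower ones included Stat3 (−0.25), which transmits the G-CSF signal, and its feedback inhibitor Socs3 (−0.67). The higher ones included Il6st, the shared receptor chain of the interleukin-6 family (1.02), Pim2, a survival kinase (1.57), and Socs1 (1.40). The call on Stat3 was lost in 1 of 15 alternatives (adjusted p up to 0.355), and so was that on Socs3 (up to 0.0689), whose libraries overlapped. With median-of-ratios scaling the median of this list turned from 0.15 to −0.28, and 6 genes rose and 15 fell.

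Among myeloid transcription factors several of the granulocyte line were lower and several shared with dendritic cells and macrophages higher. Spi1, which encodes PU.1, a factor of both myeloid and B cells, stood at 224, 236 and 246 TPM in T_GC and 512, 554 and 528 TPM in T_P (log2 difference −1.17, SE 0.09, adjusted p = 9.17e-08). Cebpe, required for secondary granules, stood at 46.1, 54.5 and 60.7 TPM in T_GC and 219.7, 210.0 and 206 TPM in T_P (log2 difference −1.97, SE 0.32, adjusted p = 8.61e-05), and Gfi1, which favours granulocytes over monocytes, at 10.2, 7.99 and 7.47 TPM in T_GC and 21.6, 24.1 and 18.1 TPM in T_P (log2 difference −1.22, SE 0.13, adjusted p = 2.52e-06). Nfe2, known from megakaryocytes and red cell precursors, fell from 227 ± 9.28 TPM in T_P to 68 ± 7.05 TPM in T_GC (−1.73). Cebpb, which serves emergency granulopoiesis, differed by −1.71 (adjusted p = 0.0053). Irf8, a factor of dendritic cells, monocytes and B cells, rose to 198, 185 and 169 TPM in T_GC from 62.8, 51.3 and 60.4 TPM in T_P (log2 difference 1.65, SE 0.08, adjusted p = 4.16e-09). Irf4, of activated lymphocytes and dendritic cells, differed by 1.67. In all, 8 of 20 such factors were higher and 7 lower, with a median of 0.14 that turned to −0.28 under median-of-ratios scaling.

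Genes of phagocyte activation were mostly lower. Of 8 genes of the phagocyte oxidase, the complex that makes superoxide, 6 were lower, among them the subunits Ncf1 (266, 294 and 278 TPM in T_GC, 749.8, 839.8 and 789 TPM in T_P, −1.50), Ncf4 (−1.33) and Cybb (−1.18). Hvcn1, a proton channel that B cells also use, was higher (0.91), and so was Cybc1 (0.28), a chaperone of the complex whose difference turned to −0.15 with median-of-ratios scaling. Of 9 eicosanoid enzymes 5 were lower, led by those of leukotriene synthesis, Alox5ap (240.2, 304 and 425 TPM in T_GC, 1170.0, 1244 and 1226 TPM in T_P, −1.94), Alox5 (−1.64) and Lta4h (−1.38), whereas Hpgds, prostaglandin D synthase, was higher (1.75). Of 14 genes associated with suppressive myeloid cells 10 were lower and 1 higher. Nos2, the inducible nitric oxide synthase, stood at 0.02, 0.18 and 0.43 TPM in T_GC and 6.9, 14.6 and 11.3 TPM in T_P (log2 difference −3.26, SE 0.28, adjusted p = 2.81e-07), so every T_GC library was under 1 TPM. Arg2 differed by −1.25 and Vegfa, a vascular growth factor, by −1.39. Arg1, the arginase usually named with such cells, was low and overlapped (0.06, 0.13 and 1.04 TPM in T_GC and 0.41, 0.26 and 0.64 TPM in T_P, difference −0.08, adjusted p = 0.912). Tgfb1 was the gene that was higher (0.41), and turned to −0.03 with median-of-ratios scaling.

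Eosinophil granule genes were much lower too. Prg2, major basic protein, stood at 51.6, 31 and 49.6 TPM in T_GC and 348, 645 and 571 TPM in T_P (log2 difference −3.52, SE 0.34, adjusted p = 7.25e-07), and Epx, eosinophil peroxidase, at 9.04, 3.02 and 2.81 TPM in T_GC and 40.0, 80.8 and 60.6 TPM in T_P (log2 difference −3.46, SE 0.34, adjusted p = 8.80e-07). T_P replicate 26 was the lowest of its group for both and lay more than 4-fold above every T_GC library. Prg3 differed by −3.07 and the eosinophil ribonuclease genes Ear6 and Ear1, which have close copies, by −3.08 and −2.65. Genes of basophils and mast cells went both ways, with −1.82 for Hdc, histidine decarboxylase, −1.20 for Mcpt8, a basophil protease, and −0.85 for Cpa3, but 2.10 and 1.04 for the mast cell proteases Mcpt4 and Cma1. The eosinophil surface receptors did not follow the granule genes, since Ccr3, the eotaxin receptor, was higher at 24.9, 19.8 and 32.4 TPM in T_GC and 9.8, 7.94 and 9.44 TPM in T_P (log2 difference 1.39, SE 0.22, adjusted p = 6.45e-05) and Il5ra was higher by 0.98. Of 17 genes tested 12 were lower and 5 higher.

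Glycolysis genes were lower at most steps of the pathway. Of 20 tested 16 were lower and none higher (median −1.09). Pkm, pyruvate kinase, stood at 461, 451 and 460.2 TPM in T_GC and 1115, 1158 and 1083 TPM in T_P (log2 difference −1.29, SE 0.06, adjusted p = 3.56e-09), Pgk1, phosphoglycerate kinase, at 155, 162 and 156 TPM in T_GC and 362, 342 and 339 TPM in T_P (log2 difference −1.14, SE 0.06, adjusted p = 4.16e-09). Both had little spread within the groups. The lactate exporter Slc16a3 differed by −2.17, hexokinase 3, Hk3, by −1.73, the glucose transporter Slc2a3 by −1.39 and Gapdh by −1.34. The genes of the phosphofructokinase subunits, Pfkl, Pfkp and Pfkm, were not called, at −0.09, 0.17 and 0.44, and Pfkp turned to −0.26 with median-of-ratios scaling. The share of the 64 neutrophil genes was also lower in T_GC (4.48% to 7.10% of TPM) than in T_P (22.5% to 24.2%). Within each group the libraries were ordered differently by that share and by the summed glycolysis genes. Those sums were 2861, 2669 and 2754 TPM in T_GC and 6221, 6598 and 6232 TPM in T_P. The part of the neutrophil share in the result was not tested.

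Mitosis genes were lower, and the T_GC libraries differed in them. Of 24 genes 23 were lower (median −0.85), and 12 when only the 6 libraries were fitted. Ube2c, a ubiquitin carrier of mitotic exit, stood at 126, 87.8 and 64.8 TPM in T_GC and 217, 191 and 192 TPM in T_P (log2 difference −1.15, SE 0.19, adjusted p = 9.55e-05). Mki67, a marker of cycling cells, stood at 126, 65.5 and 42.5 TPM in T_GC and 128, 144 and 115 TPM in T_P (log2 difference −0.86, SE 0.29, adjusted p = 0.0172), so T_GC replicate 10 lay within the T_P range. Its call was lost without T_GC replicate 37, without T_P replicate 39 and in the fit of the 6 libraries (adjusted p between 0.000232 and 0.1 over the alternatives). Summed over the 24 genes the level was 1384, 916 and 633 TPM in T_GC and 1798, 1738 and 1596 TPM in T_P. Of 23 genes of S phase 10 were lower and 1 higher, a count that ran to 19 lower without T_GC replicate 10, 21 lower under median-of-ratios scaling and 4 lower in the fit of the 6 libraries. Ccne1, cyclin E1, differed by −0.46 and Rrm2, a ribonucleotide reductase subunit, by −1.04. Cdt1 was the gene that was higher (0.23), with −0.19 under median-of-ratios scaling.

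**Figure D3:**
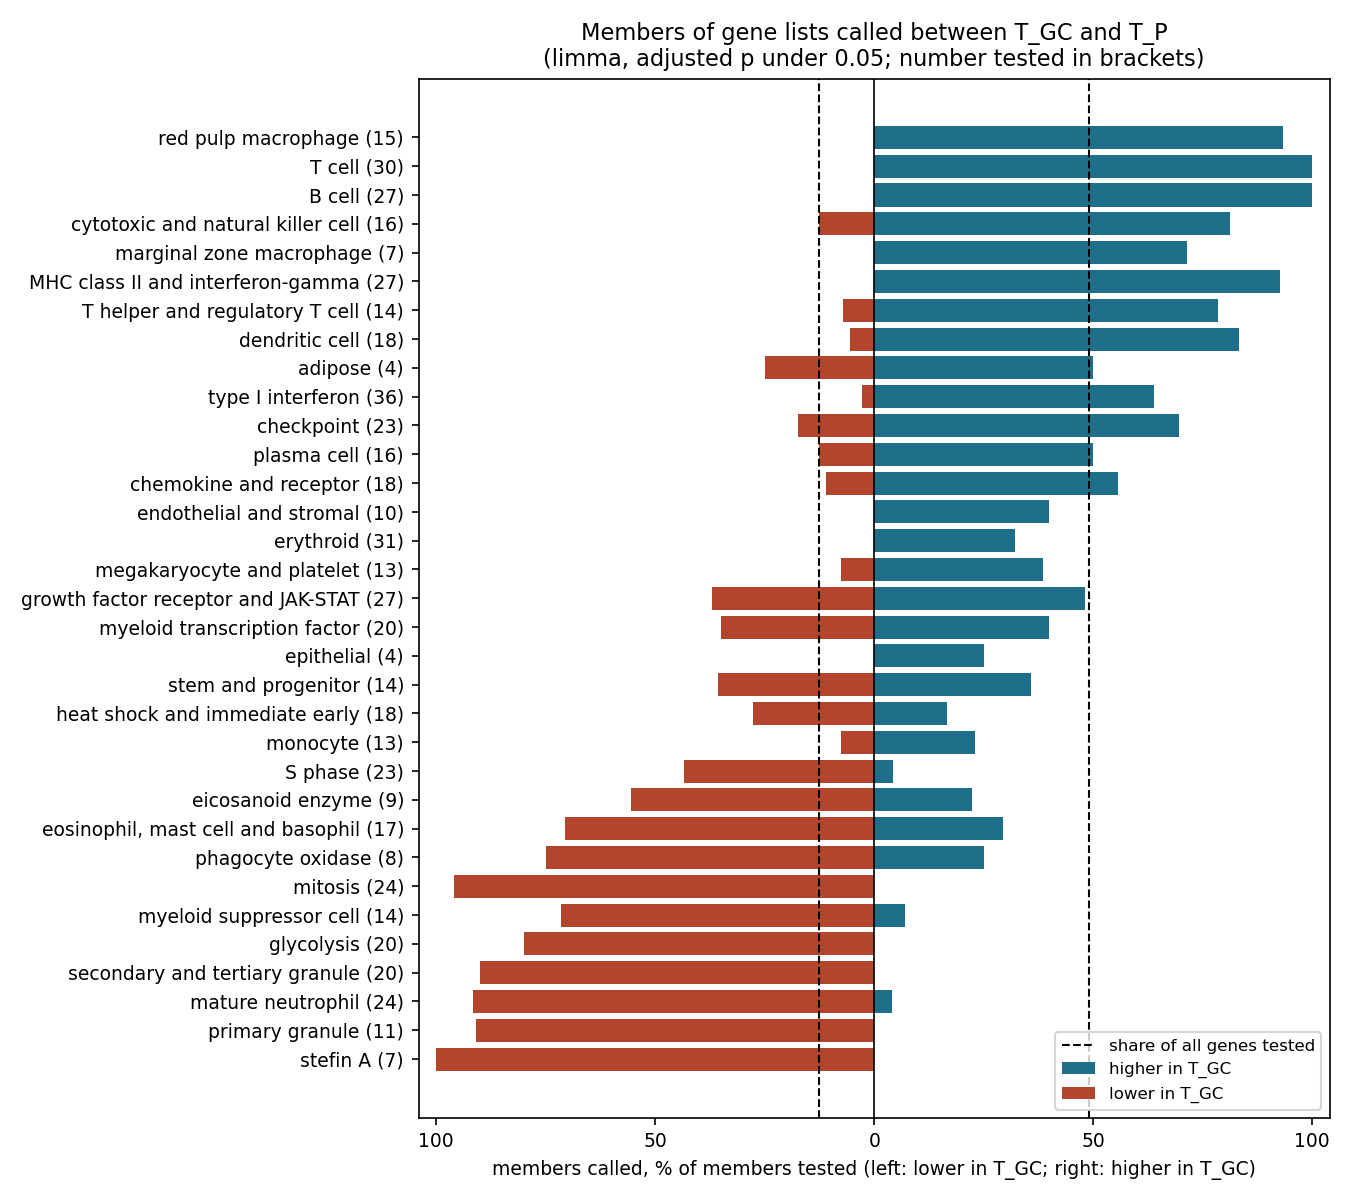
Share of tested members called higher (right) or lower (left) in T_GC than in T_P, in percent, for 33 gene lists sorted by median difference, with the number tested in brackets and dashed lines at 49.1% and 12.7%, the shares of all genes tested. Red pulp, T cell and B cell lists lie right of the upper dashed line and granule, neutrophil, stefin, glycolysis and mitosis lists lie left of the lower one, while the medians of the JAK-STAT, myeloid transcription factor, stem and progenitor, erythroid and epithelial lists change sign under median-of-ratios scaling.

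B cell genes were higher in T_GC without exception. All 27 listed genes were called (median 1.90, range 0.47 to 2.78), and 26 were with median-of-ratios scaling. Cr2, the complement receptor of mature and above all marginal zone B cells, stood at 141, 176 and 156 TPM in T_GC and 22.4, 18.4 and 26 TPM in T_P (log2 difference 2.78, SE 0.19, adjusted p = 3.16e-08). Dtx1, a Notch pathway gene high in marginal zone B cells, stood at 90.0, 91.5 and 119.9 TPM in T_GC and 16.2, 12.3 and 14.4 TPM in T_P (log2 difference 2.73, SE 0.12, adjusted p = 2.25e-09). Ighd, the IgD constant region of mature naive B cells, was at 707, 598 and 757 TPM in T_GC and 122, 105 and 175 TPM in T_P (log2 difference 2.37, SE 0.18, adjusted p = 7.33e-08), whereas Ighm, of IgM, differed by 1.20. Cxcr5, which leads B cells into follicles, rose from 19.7 ± 3.82 TPM in T_P to 85.5 ± 1.7 TPM in T_GC (2.08). Plasma cell genes were mixed, with 8 of 16 higher and 2 lower, a share near that of all genes. Mzb1, a chaperone of antibody secretion, differed by 1.52 and Xbp1, which drives the secretory programme, by −0.60. With the other scaling 3 rose and 5 fell.

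T cell genes were likewise all higher, 30 of 30 (median 1.93, range 0.72 to 2.35), with 29 under median-of-ratios scaling. Cd3e, of the receptor complex, stood at 71.6, 98.2 and 110.0 TPM in T_GC and 20.4, 16.3 and 22 TPM in T_P (log2 difference 2.18, SE 0.15, adjusted p = 3.48e-08). Cd4 was at 40.1, 53.3 and 56 TPM in T_GC and 12.6, 8.83 and 13.2 TPM in T_P (log2 difference 2.02, SE 0.15, adjusted p = 8.52e-08) and Cd8a at 22.1, 32.2 and 40.1 TPM in T_GC and 7.91, 6.48 and 7.85 TPM in T_P (log2 difference 1.91, SE 0.17, adjusted p = 4.01e-07). T_GC replicate 10 was the lowest of its group for all 3, and it still lay more than 2-fold above every T_P library. Ccr7 and Tcf7, of naive T cells, differed by 2.35 and 2.34. Foxp3, the factor of regulatory T cells, rose from 4.2 ± 0.0862 TPM in T_P to 10.5 ± 0.707 TPM in T_GC (1.15), Cd40lg, the helper signal to B cells, by 1.88 and Tbx21, of type 1 helper cells, by 1.46. Of 14 helper and regulatory genes 11 were higher and 1, Bcl6, lower (−0.46). Among genes outside these lists, Dapl1, Scml4, Pik3ip1, Trim7, Ell3 and Zfp318 were in the 12 largest rises, by 2.70, 2.43, 2.45, 2.50, 2.53 and 2.38. With the 64 neutrophil genes left out of the TPM total, 29 T cell genes and 26 B cell genes were called higher. Wdr49 headed the rises by the naming rule and was listed at 0 in 2 of the T_P libraries and at 0.05 TPM in the other, against 4.61, 6.43 and 14 TPM in T_GC. Its call was lost in 7 of 15 alternatives (adjusted p between 0.0015 and 0.0932).

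Natural killer and cytotoxic genes were mostly higher, 13 of 16. Prf1, perforin, stood at 13.4, 17.7 and 14.8 TPM in T_GC and 4.6, 3.68 and 4.2 TPM in T_P (log2 difference 1.65, SE 0.12, adjusted p = 7.33e-08). Ccl5, a chemokine of effector lymphocytes, differed by 1.97, Klrd1, a killer receptor chain, by 1.96 and Gzma, granzyme A, by 1.72. Gzmb, granzyme B, differed by 1.10. Cst7 and Nkg7, which myeloid cells can express too, were the lower ones, at −1.35 and −0.68.

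PD-1 and its ligands were higher in T_GC. Pdcd1 stood at 4.26, 2.6 and 3.35 TPM in T_GC and 1.45, 1.57 and 1.64 TPM in T_P (log2 difference 0.77, SE 0.16, adjusted p = 0.000787). Cd274 was at 17.8, 21.8 and 17.2 TPM in T_GC and 7.28, 7.69 and 8.18 TPM in T_P (log2 difference 1.19, SE 0.12, adjusted p = 1.15e-06) and Pdcd1lg2 at 3.68, 3.98 and 3.48 TPM in T_GC and 0.86, 1.31 and 1.35 TPM in T_P (log2 difference 1.12, SE 0.13, adjusted p = 2.85e-06). The groups did not overlap in any of the 3, and all 3 calls held in every alternative run, the largest adjusted p being 0.0148. Of 23 genes of checkpoint receptors and B7 ligands 16 were higher, with 2.13 for Btla, 2.53 for Cd200, 1.87 for Cd96, 0.94 for Lag3 and 0.81 for Tigit, a call lost with median-of-ratios scaling (adjusted p = 0.118). The 4 lower ones were Vsir, which myeloid cells express (133, 131 and 152 TPM in T_GC, 315, 357 and 334 TPM in T_P, −1.27), Nectin2 (−1.22), Cd200r1 (−0.84) and Cd47 (−0.38).

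Genes of the resident macrophages of the spleen rose too. Of 15 red pulp genes 14 were higher (median 2.04) and none lower, and 13 were higher with the 64 neutrophil genes left out of the TPM total. Spic, the factor that specifies red pulp macrophages, stood at 55.2, 51.4 and 67.2 TPM in T_GC and 13, 12.1 and 9.3 TPM in T_P (log2 difference 2.25, SE 0.17, adjusted p = 6.86e-08), and Itgad, the CD11d integrin they carry, at 65.1, 57.2 and 129 TPM in T_GC and 15.4, 11.3 and 12.4 TPM in T_P (log2 difference 2.51, SE 0.26, adjusted p = 1.65e-06). Replicate 37 was the highest T_GC library for both. C1qa, of the complement C1q complex, differed by 2.22, Vcam1, an adhesion molecule, by 2.09, Axl, a receptor for dying cells, by 2.04 and Hmox1, which breaks down haem, by 1.77. Slc40a1, the iron exporter ferroportin, was not called, at 114, 131 and 151 TPM in T_GC and 116, 117 and 116 TPM in T_P (0.18, adjusted p = 0.419, and −0.26 with median-of-ratios scaling). Of 7 marginal zone macrophage genes 5 were higher. Marco, their scavenger receptor, stood at 4.45, 4.97 and 8.67 TPM in T_GC and 0.62, 0.42 and 0.81 TPM in T_P (log2 difference 2.08, SE 0.25, adjusted p = 6.64e-06), Timd4, a receptor for phosphatidylserine, differed by 1.65, and Msr1 was not called (−0.25). Stab2, a scavenger receptor of sinus endothelium, was at 20.6, 20.3 and 25.2 TPM in T_GC and 2.84, 4.34 and 3.17 TPM in T_P (log2 difference 2.38, SE 0.14, adjusted p = 1.39e-08).

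Dendritic cell genes were higher in 15 of 18 cases (median 1.04). Siglech, of plasmacytoid dendritic cells, stood at 12.1, 14.8 and 8 TPM in T_GC and 1.87, 1.18 and 1.63 TPM in T_P (log2 difference 2.28, SE 0.21, adjusted p = 4.49e-07), and Xcr1, of the cross-presenting subset, differed by 0.84. Sirpa, which many myeloid cells share, was lower (−0.78). MHC class II genes, by which these cells, B cells and macrophages present antigen, were higher as well, 25 of 27 genes of a list that also holds interferon-gamma targets (median 1.28). Cd74, the invariant chain, stood at 4558, 4444 and 5190.1 TPM in T_GC and 1363, 1065 and 1435 TPM in T_P (log2 difference 1.88, SE 0.12, adjusted p = 1.85e-08), and Ciita, the transactivator of the class, rose from 15.3 ± 2.16 TPM in T_P to 53 ± 3.27 TPM in T_GC (1.74). Cxcl10 and Gbp2 were not called (−0.03 and 0.29, the latter −0.13 with median-of-ratios scaling). Monocyte genes gave few calls, with 3 of 13 higher and 1 lower. The other scaling left none that rose and 6 that fell. Ly6c2, of inflammatory monocytes, was at 212, 250.1 and 216 TPM in T_GC and 344, 239 and 259 TPM in T_P (−0.30, adjusted p = 0.179), with groups that overlapped.

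Type I interferon genes were higher in 23 of 36 cases (median 0.81), and in 17 with median-of-ratios scaling, where 5 were lower. Ifi44 differed by 1.91, Ifit3 by 1.87, Mx2 by 1.82 and Bst2, which tethers viruses to the membrane, by 1.17. Among 2',5'-oligoadenylate synthetase genes of the list the differences were −0.96 for Oas2 (adjusted p = 0.0282), −0.64 for Oas3 (adjusted p = 0.0636) and −0.54 for Oas1a (adjusted p = 0.164). Oas1b and Oas1c of the same family, which the list does not hold and which were picked after their values were seen, were higher by 0.78 and 1.01 (adjusted p = 0.000138 and 7.6e-06). The call on Oas2 was lost in 7 of 15 alternatives. Of 18 chemokines and receptors 10 were higher, near the share of all genes, and the 2 lower ones were the neutrophil receptors Cxcr1 (−1.67) and Ccr1 (−1.55). Ccr6, a receptor of B cells, differed by 2.14.

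Red cell, platelet and progenitor genes moved less uniformly. Of 31 erythroid genes 10 were higher and none lower, a smaller share than over all genes. With median-of-ratios scaling 5 rose and 1 fell, and the median turned from 0.35 to −0.05. The globin genes were among those higher. Hbb-bs stood at 593, 862 and 1083 TPM in T_GC and 221, 279.9 and 112 TPM in T_P (log2 difference 2.10, SE 0.51, adjusted p = 0.0023), though globin copies are near-identical and the single value is uncertain. Klf1 and Gata1, factors of red cell precursors, were not called (−0.04 and 0.23, the latter −0.18 with median-of-ratios scaling). Among 13 megakaryocyte and platelet genes 5 were higher, led by Itgb3 (1.22), a smaller share than over all genes. With median-of-ratios scaling 2 were higher. Selp, P-selectin, which endothelium also makes, was lower at 1.32, 3.55 and 2.41 TPM in T_GC and 10.3, 15.8 and 15.5 TPM in T_P (log2 difference −2.15, SE 0.27, adjusted p = 7.77e-06). Of 14 progenitor genes 5 were higher and 5 lower, with a median of 0.02 that median-of-ratios scaling turned to −0.32. Differences were 1.09 for Flt3 and 1.18 for Sox4, which early B cells also use, and −1.23 for Hoxa9, −1.01 for Cd34 and −0.51 for Kit. The Sox4 libraries overlapped and its call was lost in 8 of 15 alternatives (adjusted p up to 0.2). Of 18 heat-shock and immediate-early genes 5 were lower and 3 higher. Hspa1b was the largest of these falls, at 1.71, 2.05 and 1.7 TPM in T_GC and 10.3, 18.8 and 22 TPM in T_P (log2 difference −2.62, SE 0.53, adjusted p = 0.000597), and shares reads with its near-identical copy Hspa1a (−2.18). Dnajb1 was higher by 0.34 and turned to −0.08 with median-of-ratios scaling. Marker lists of neighbouring tissue had few genes that passed the filter. Of 10 endothelial and stromal genes 4 were higher, and 2 with median-of-ratios scaling. Of 4 epithelial genes 1 was higher, Epcam, which dendritic cells also express (0.89). Both shares were smaller than over all genes. Cela1, the elastase that was the only pancreatic gene tested, was higher at 32.2, 39.2 and 48.7 TPM in T_GC and 10.5, 6.5 and 8.47 TPM in T_P (2.12), while Fabp4 and Lpl, fat cell genes that macrophages share, differed by 1.50 and 1.31, and Adipoq, Plin1, Lep and Cfd did not pass the filter.

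The T_GC libraries were far apart for some genes. Where the T_GC mean was 20 TPM or more, the 8 largest SDs over its libraries were those of Snord22, Vpreb1, Igll1, Ulk4, Xist, Rag1, Nek1 and Cplx2. Vpreb1 and Igll1 encode the surrogate light chain of B cell precursors. Vpreb1 stood at 135, 68.7 and 4.52 TPM in T_GC and 9.86, 22.2 and 32.3 TPM in T_P, and Igll1 at 147, 67.4 and 4.83 TPM in T_GC and 13.1, 20.7 and 30.8 TPM in T_P. Rag1, of the antigen receptor recombinase, stood at 86.4, 38.9 and 7.27 TPM in T_GC and 6.42, 13.6 and 14.9 TPM in T_P. T_GC replicate 10 was the highest, replicate 21 intermediate and replicate 37 the lowest in each of these genes, so that T_GC overlapped T_P, and none of the 3 was called (adjusted p = 0.442, 0.454 and 0.0818). Named after their values had been seen, Rag2 (22.9, 11.4 and 1.5 TPM in T_GC) and Dntt, of terminal transferase (33.4, 17.2 and 1.09 TPM in T_GC), had the same order. In N_GC and N_P these precursor genes were low, with means of 2.01 ± 1.14 and 1.77 ± 0.272 TPM for Vpreb1. The summed mitosis genes had that order too, whereas Stfa2 and Il1r2, a decoy receptor of interleukin-1 (12.6, 20.4 and 80.1 TPM in T_GC, 83.5, 106 and 82.9 TPM in T_P), had the reverse. Snord22, a small nucleolar RNA, was listed at 0 in T_GC replicates 21 and 37 and at 72.8, 26.5 and 149 TPM in T_P. Xist, Ulk4 and Nek1 had a further order, with replicate 10 the highest and replicate 21 the lowest in T_GC. Xist stood at 175, 13.6 and 95 TPM in T_GC and 71.8, 72.8 and 77.7 TPM in T_P. Its means were 131 ± 12.3 TPM in N_GC and 108 ± 4.88 TPM in N_P.

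**Figure D4:**
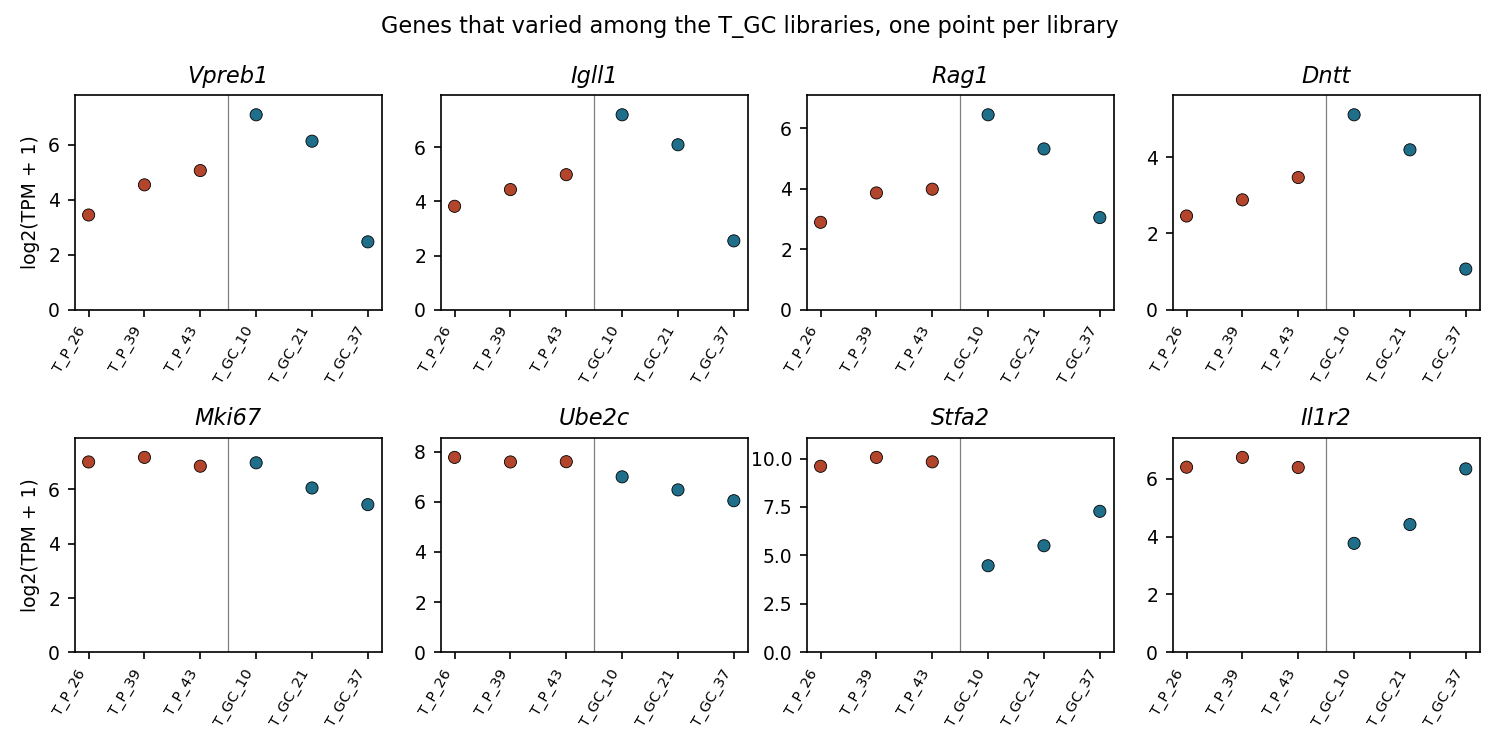
Level of 8 genes as log2(TPM + 1) (vertical) in each of the 3 T_P and 3 T_GC libraries (horizontal), 1 point per library. Among the T_GC libraries Vpreb1, Igll1, Rag1, Dntt, Mki67 and Ube2c are highest in replicate 10 and lowest in replicate 37, while Stfa2 and Il1r2 are highest in replicate 37.

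The spleens without a tumour show which of these differences between the codes were present there too. Between N_GC and N_P limma called 195 genes, 1.17% of those tested, 71 higher (0.427%) and 124 lower (0.745%), with 2371 at an unadjusted p under 0.05. The difference of the differences, (T_GC minus T_P) minus (N_GC minus N_P), was called for 6540 genes (39.3%). It was positive, with T_GC minus T_P the more positive, for 5185 (31.2%) and negative for 1355 (8.15%).

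Many neutrophil genes were lower under GC in both settings. In the N comparison 6 primary granule genes of 11, 11 secondary and tertiary granule genes of 20 and 11 mature neutrophil genes of 24 were lower, and none was higher. None of the 7 stefin A genes was called there, with a median difference of −1.28 in N at levels of 23.6 TPM or less on average in either group. S100a9 was at 297, 297 and 671 TPM in N_GC and 2454, 2435 and 1636 TPM in N_P, a difference of −2.45 (SE 0.37, adjusted p = 0.0045). The difference of the differences was 0.42 (SE 0.52, adjusted p = 0.555) and was not called, as it was not for Mpo (−0.77, adjusted p = 0.307) and Elane (−1.40, adjusted p = 0.0705). For Csf3r the differences were −1.26 with a tumour and −1.26 without, so their difference was 0.00 with an SE of 0.38. Uncalled differences of this kind do not show that the codes acted alike, and their SEs are given for that reason.

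Within the neutrophil genes the difference of the differences was called in both directions. Of 20 secondary and tertiary granule genes 3 had a positive value, a smaller share than the 31.2% of all genes, and 7 a negative one. The 3 positive ones fell further without a tumour. No primary granule, mature neutrophil or stefin gene had a positive value that was called. Ngp went from 401 ± 171 TPM in N_P to 27 ± 14.4 TPM in N_GC (−3.86), and the positive ones were Ngp (2.15, adjusted p = 0.0382), Ltf (1.92, adjusted p = 0.0494) and Camp (2.44, adjusted p = 0.0252). Negative values were called for 7 of 11 primary granule genes, 9 of 24 mature neutrophil genes and 4 of 7 stefin genes, against 8.15% of all genes. Several of these genes were weakly expressed without a tumour. Prtn3 had means of 0.583 TPM in N_GC and 6.13 TPM in N_P, and Ctsg of 0.287 and 3.07 TPM. Differences in log2(TPM + 1) are understated at such levels, so a negative value there does not show a larger fold change with a tumour. Prok2 and Lipg were under 1 TPM in every N_P and N_GC library, so little fall could show there, and their differences of the differences were −4.37 and −3.74. Of 20 glycolysis genes 15 had a negative value and 1 was called in N. Pkm differed by −0.11 in N (adjusted p = 0.456), and the difference of the differences was −1.18 (adjusted p = 1.03e-06). For the eosinophil gene Prg2 it was −2.70 (adjusted p = 0.000522), with 2.32 ± 0.451 TPM in N_GC and 4.95 ± 1.42 TPM in N_P.

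For most listed B cell, T cell and splenic macrophage genes T_GC minus T_P was more positive than N_GC minus N_P. The median N_GC minus N_P difference was 0.08 for B cell, 0.26 for T cell and −0.10 for red pulp genes. For MHC class II and interferon-gamma genes it was −0.05. The difference of the differences was positive for 27 of 27 B cell genes, 29 of 30 T cell genes, 13 of 15 red pulp genes and 26 of 27 MHC class II and interferon-gamma genes, against 31.2% of all genes, and none of these lists had a gene called in N. Cr2 was at 301, 349 and 243 TPM in N_GC and 271, 207 and 259 TPM in N_P, so T_GC, with a mean of 158 ± 17.2 TPM, lay between T_P and the N groups. Cd3e had means of 221 ± 6.24 TPM in N_GC and 193 ± 7.54 TPM in N_P and 93.3 ± 19.7 TPM in T_GC. Spic in T_GC, at 57.9 ± 8.26 TPM, was at the level of the N groups (52.1 ± 6 and 62.9 ± 12.2 TPM). Pdcd1 was at 3.81 ± 0.489 TPM in N_GC and 5.91 ± 1.23 TPM in N_P, a difference of −0.51 (adjusted p = 0.147), and its difference of the differences was 1.28 (adjusted p = 0.000522). For Cd274 it was 1.10 (adjusted p = 0.000178). Among the heat-shock genes, Hsph1 (−1.54), Dnajb1 (−0.97), Hspa8 (−0.92) and Hsp90aa1 (−0.89) were lower in N_GC than in N_P. Between T_GC and T_P Hsph1 and Hspa8 were not called (0.11 and −0.28), and Hsph1 turned to −0.32 with median-of-ratios scaling.

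**Figure D5:**
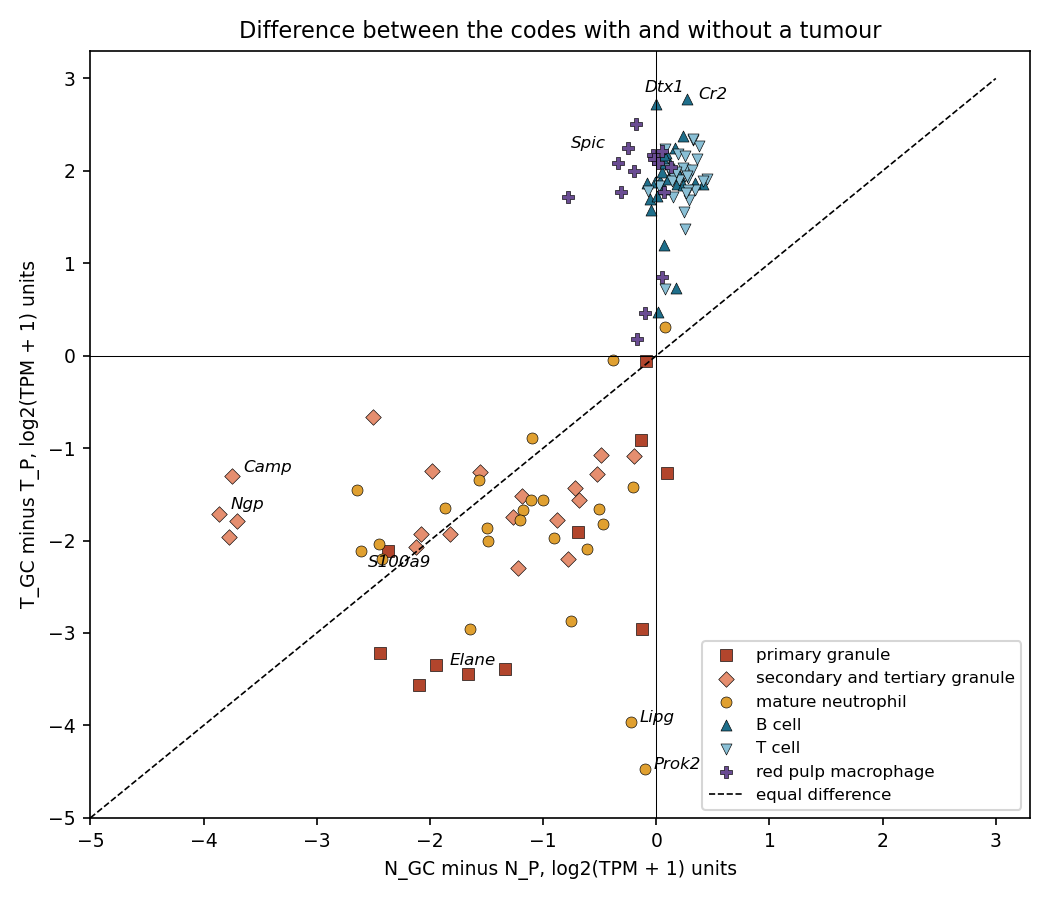
Difference T_GC minus T_P (vertical) against N_GC minus N_P (horizontal), both in log2(TPM + 1) units, for 6 gene lists, with a dashed line of equal difference. B cell, T cell and red pulp genes lie near 0 on the horizontal axis and mostly between 1 and 3 on the vertical, granule and neutrophil genes are mostly negative on both, and Prok2 and Lipg are near 0 horizontally and near −4 vertically.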

How the data were processed

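RNA of spleen cells was measured in 18 libraries, 3 per group. The values are TPM that the authors deposited, 1 column per library, and fastp, RSEM and the build GRCm39 are named in the submitters' processing notes without versions. Annotation, strand setting and filters are not given in the sources used here. Depth is unknown because TPM keep no read counts, so no interval for counting error is given. Of 56876 genes 2863 had no symbol and 1462 no Ensembl identifier.

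The 16635 genes that reached 1 TPM in 3 or more of the 18 libraries were analysed as log2(TPM + 1) with limma 3.58.1 in R 4.3.3. The fit had 6 group means over 18 libraries (12 residual degrees of freedom) and moderation with an intensity trend, and two-sided p-values were adjusted by Benjamini-Hochberg over all genes tested. On simulated data 200 of 16635 genes were changed between T_GC and T_P. The changed genes were drawn from those with a mean log2(TPM + 1) above 2 over the 18 libraries. In these simulations 77.2% of changes of 1 log2 unit and 94.8% of changes of 2 were called, with 9.8 false calls on average. The recovery of weakly expressed genes was not tested. In the measured data 61.8% of genes were called and the median gene was higher in T_GC by 0.39. The median SD of a gene was 0.203 in T_GC against 0.129 in T_P. How far the figures from simulated data hold under such conditions was not tested. Median-of-ratios scaling used the 11750 genes above 1 TPM in all 18 libraries.

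The gene lists were chosen with earlier results of these data known, and so was the comparison. Genes were named as follows: the 12 largest rises and falls among called genes with a mean of at least 5 TPM and no overlap, 3 called members per list and direction by smallest p, a set of cell type and pathway genes always shown, the 8 with the largest SD in T_GC and the 5 largest differences of the differences in each direction. Some genes that the rule names are not reported here. Further list members, and Rag2 and Dntt, were picked after their values were seen. Promoter windows came from a RefSeq table of another build, GRCm38.p6, and were matched by symbol. The I groups enter the estimate of spread and are otherwise not analysed here. Alternatives were another pseudocount, other filters, other scalings, other variance models, a fit of the 6 libraries and each T_GC or T_P library left out.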

Additional observations from a re-analysis of the deposited data

Results flagged for a closer look

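For 6540 genes the difference between the codes differed between tumour-bearing spleens and spleens without a tumour by limma's test of that difference, (T_GC minus T_P) minus (N_GC minus N_P), at an adjusted p under 0.05. The values below are that difference in log2(TPM + 1) units. Among genes chosen for its size it was negative for Saa3 (−4.49), Prok2 (−4.37), Lipg (−3.74), Ggt1 (−3.52) and Prg3 (−3.35), of which Prok2 and Lipg were under 1 TPM in every N_GC and N_P library. Saa3 was at 0.69, 0 and 0.72 TPM in N_GC and 0.03, 0.95 and 1.31 TPM in N_P, so little fall could show there either. The difference was positive for Wdr49 (4.51), Adgrf5 (3.45), Klk1 (2.83) and Ifi44l (2.83).

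Some of these rest on uneven libraries. Wdr49 stood at 0.06, 0.08 and 14.7 TPM in N_GC and 1.21, 10.7 and 12.9 TPM in N_P, so 1 N_GC library was far above the other two. Adgrf5 was not called between T_GC and T_P (adjusted p = 0.0902). Klk1, a kallikrein, was at 8.6, 12.4 and 8.18 TPM in T_GC and 1.73, 0.89 and 2.13 TPM in T_P, and at 9.26, 4.7 and 6.61 TPM in N_GC and 12.2, 12.1 and 11.7 TPM in N_P. Ifi44l, an interferon-induced gene, was at 18.8, 20.3 and 17.2 TPM in T_GC and 6.42, 3.78 and 3.68 TPM in T_P, with 4.12, 11.7 and 8.89 TPM in N_GC and 14.8, 15.9 and 17.8 TPM in N_P, so both genes had the lower N group under GC and the lower T group under P.

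For the PD-1 axis the difference was 1.28 for Pdcd1, 1.10 for Cd274 and 0.95 for Pdcd1lg2. Among cell type markers it was 1.99 for Cd3e, 1.91 for Cd4, 1.46 for Cd8a, 2.50 for Spic and 2.41 for Marco. The 64 listed neutrophil genes took 6.10% of TPM in T_GC and 23.2% in T_P, and their part in these differences was not tested. Groups of 3 are too small for a test of single outlying libraries.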

How the results depend on the processing

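The counts depended most on the scaling. With median of ratios genes higher in T_GC than in T_P numbered 4295 and genes lower in T_GC than in T_P 4360, and TPM recomputed without the listed neutrophil genes gave 5421 and 3318, against 8173 and 2111. The other 13 alternatives stayed between 6874 and 9467 higher and between 1596 and 2194 lower. With 1 library left out the counts ran from 7217 to 8411 higher and from 1889 to 2189 lower, and genes whose T_GC minus T_P difference differs from the N_GC minus N_P difference from 5674 to 7016, against 6540. Over all alternatives this last count ran from 5249 to 8002, save for the fit of the 6 libraries, which cannot give it.

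Of 168 named genes called, median of ratios lost 15 calls, TPM without neutrophil genes 8, the fit of the 6 libraries 7, and leaving out 1 library 2 to 8. Directions turned for small or widely spread differences. With median of ratios they were −0.15 for Cybc1, −0.029 for Tgfb1, −0.19 for Cdt1, −0.0822 for Dnajb1, −0.12 for Ulk4 and −0.20 for Nek1. Without neutrophil genes they were −0.007 for Cybc1, −0.0492 for Cdt1 and −0.0636 for Nek1. With 1 library left out Arg1 ran from −0.38 to 0.0882, Vpreb1 from −0.0503 to 2.26, Igll1 from −0.10 to 2.23, Ulk4 from −0.90 to 1.35, Xist from −1.003 to 0.79, Nek1 from −0.50 to 1.09 and Dntt from −0.31 to 1.72. Under the alternatives 933 list counts stayed within 1.5 times the value given and 77 did not. Counts of 0 that remained 0 are among the 933, which raises that number.

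No paired analysis was possible because the replicate numbers in the titles are not shared between groups. TPM give no depth, so weakly expressed genes cannot be given a counting error, and changes in the total RNA of a spleen cannot be seen.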
